A study of Homo sapiens with 21 samples.

Results

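The 8 receptor genes described here bind growth factors of the developing sympathetic nervous system, and their levels were followed in SK-N-BE(2), an established human neuroblastoma cell line, after silencing of ARID1A and ARID1B. These 2 genes encode mutually exclusive subunits of BAF, an ATP-dependent chromatin remodeller. The receptor genes are ALK, RET, NTRK2, NTRK3, NGFR, GFRA1, GFRA2 and GFRA3, picked by symbol. They are 8 of the 60728 gene identifiers in the expression table, and 8 of the 18584 genes with enough reads to be tested. The table covers 7 conditions with 3 libraries each, described as biological triplicates and made 72 h after transduction with lentivirus: a non-silencing Control, 2 conditions labelled as shRNA against ARID1A (shARID1A.2 and shARID1A.4), 2 labelled as shRNA against ARID1B (shARID1B.2 and shARID1B.3) and 2 labelled as combinations (shARID1A/B.2.3 and shARID1A/B.4.2). The measured levels of the silenced genes, given after the sequences, go against these labels. All 7 conditions were transduced cells of the same single line, the hairpin sequences are not given in the sources used here, and the results describe these hairpins in this line.

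RET and ALK are receptor tyrosine kinases. RET does not bind its ligands alone but together with a GPI-anchored co-receptor of the GFRA family, of which GFRA1 is the main partner for GDNF, GFRA2 for neurturin and GFRA3 for artemin. ALK is activated by ALKAL ligands and is the kinase most often mutated in familial neuroblastoma. NTRK2 and NTRK3 encode TrkB and TrkC, the receptors of BDNF and neurotrophin-3, and NGFR encodes p75, which binds all neurotrophins and has no kinase domain. Activated kinases of this group signal through adaptors to RAS and ERK, and ERK activity is read out by immediate-early genes and by genes that feed back on the pathway.

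The sequences just upstream of RET and ALK are shown because these are the 2 kinase genes with the highest levels per length among the 8, and because RET fell in every silenced condition while ALK did not. Each stretch runs from 250 to 51 bases before a transcription start in the RefSeq promoter table (GRCh38.p14), ends before every annotated transcript of the gene at that start, and is written 5′ to 3′ on the strand of the gene. Capitals mark GC boxes, GGGCGG or CCGCCC on the other strand, the element bound by SP-family factors.
RET, chr10:43076819-43077018, plus strand: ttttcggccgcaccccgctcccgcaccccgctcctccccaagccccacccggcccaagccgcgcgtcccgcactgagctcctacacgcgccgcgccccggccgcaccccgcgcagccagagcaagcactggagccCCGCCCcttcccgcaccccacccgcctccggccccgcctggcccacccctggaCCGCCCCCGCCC
ALK, chr2:29921637-29921836, minus strand: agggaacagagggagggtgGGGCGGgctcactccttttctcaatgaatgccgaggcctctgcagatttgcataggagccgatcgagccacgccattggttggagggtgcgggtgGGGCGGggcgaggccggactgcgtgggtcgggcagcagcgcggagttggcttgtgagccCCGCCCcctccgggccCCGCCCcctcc
The RET stretch held 3 GC boxes and was 80% G and C, and the ALK stretch held 4 and was 69.5% G and C. Of 35116 promoter windows of the same length, 35% held at least 1 GC box. Neither stretch held an E-box (CANNTG, the same on both strands, present in 54.6% of windows) or an AP-1 element (TGANTCA, the same on both strands, present in 5.27%). These letters are a description of the windows and nothing about binding was measured.

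The silenced genes were examined first, because they test the labels. Values here and throughout are the deposited normalised read counts, reads divided by a size factor of the library, and tests are limma on log2(value + 1) over all 21 libraries with Benjamini-Hochberg adjustment over the 18584 genes. ARID1A had a mean of 6311 ± 191 (SD, n = 3) in Control, 2146 ± 32.1 in shARID1A.2, 2243 ± 74.8 in shARID1A.4, 1920 ± 40.2 in shARID1B.2, 2479 ± 28.5 in shARID1B.3, 5659 ± 130.0 in shARID1A/B.2.3 and 5440 ± 130.1 in shARID1A/B.4.2. ARID1B had a mean of 5796 ± 7.47 in Control, 2241 ± 15.3 in shARID1A.2, 3100 ± 31.5 in shARID1A.4, 5004 ± 78.9 in shARID1B.2, 6091 ± 79.2 in shARID1B.3, 2599 ± 55.5 in shARID1A/B.2.3 and 1907 ± 41.3 in shARID1A/B.4.2. Both genes were thus low in the libraries labelled shARID1A, ARID1A was low in those labelled shARID1B, where ARID1B stood at 86.3% and 105% of Control, and ARID1B was low in those labelled shARID1A/B, where ARID1A stood at 89.7% and 86.2% of Control. The measured levels go against the labels, and whether labels were exchanged between conditions was not tested. An exchange would change what each comparison between labels means. Conditions are therefore named as labelled throughout, and a direction drawn for a label is a direction for the libraries that carry it.

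**Figure D1:**
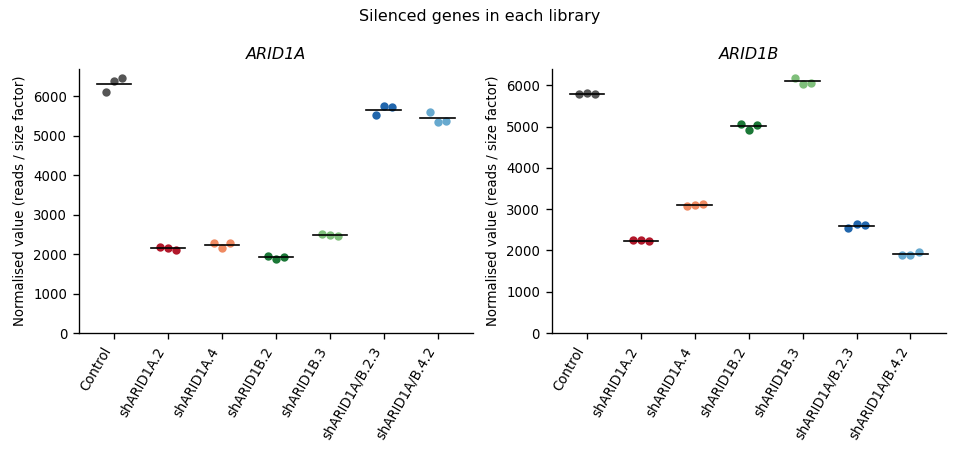
Normalised read count of ARID1A and ARID1B in each of the 21 libraries by labelled condition, with points for libraries and a line for the mean. ARID1A is low in the 4 conditions labelled shARID1A or shARID1B (means of 1920 to 2479 against 6311 in Control), and ARID1B is low in the 4 labelled shARID1A or shARID1A/B (means of 1907 to 3100 against 5796).

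Across the 8 receptor genes, silencing changed levels in both directions and RET alone was called lower in all 6 conditions. At an adjusted p below 0.05 (limma), 6 of 8 genes were called in shARID1A.2, where 76.1% of all tested genes were called, 5 in shARID1A.4 (73.6% of all), 5 in shARID1B.2 (65.6%), 5 in shARID1B.3 (63.9%), 6 in shARID1A/B.2.3 (69.2%) and 5 in shARID1A/B.4.2 (71.2%). With so many genes called, these shares are near the background. Called changes of at least 1 on the log2 scale were found in 5 of the 8 in shARID1A.2 (24.8% of all genes), 4 in shARID1A.4 (21.4%), 1 in shARID1B.2 (12%), 5 in shARID1B.3 (11.8%), 2 in shARID1A/B.2.3 (16.1%) and 4 in shARID1A/B.4.2 (18.4%). All called changes were falls in shARID1A.4, shARID1B.3 and shARID1A/B.2.3, with 5, 5 and 6 genes lower, whereas shARID1A.2 had 3 higher and 3 lower, shARID1B.2 had 2 higher and 3 lower, and shARID1A/B.4.2 had 3 higher and 2 lower. Among all tested genes, 37.9% were called higher and 38.2% lower in shARID1A.2, 37% and 36.6% in shARID1A.4, 31.6% and 34% in shARID1B.2, 31.9% and 32% in shARID1B.3, 35.2% and 34% in shARID1A/B.2.3, and 35.1% and 36.1% in shARID1A/B.4.2. The 6 comparisons share the Control libraries and are not independent of each other.

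**Figure D2:**
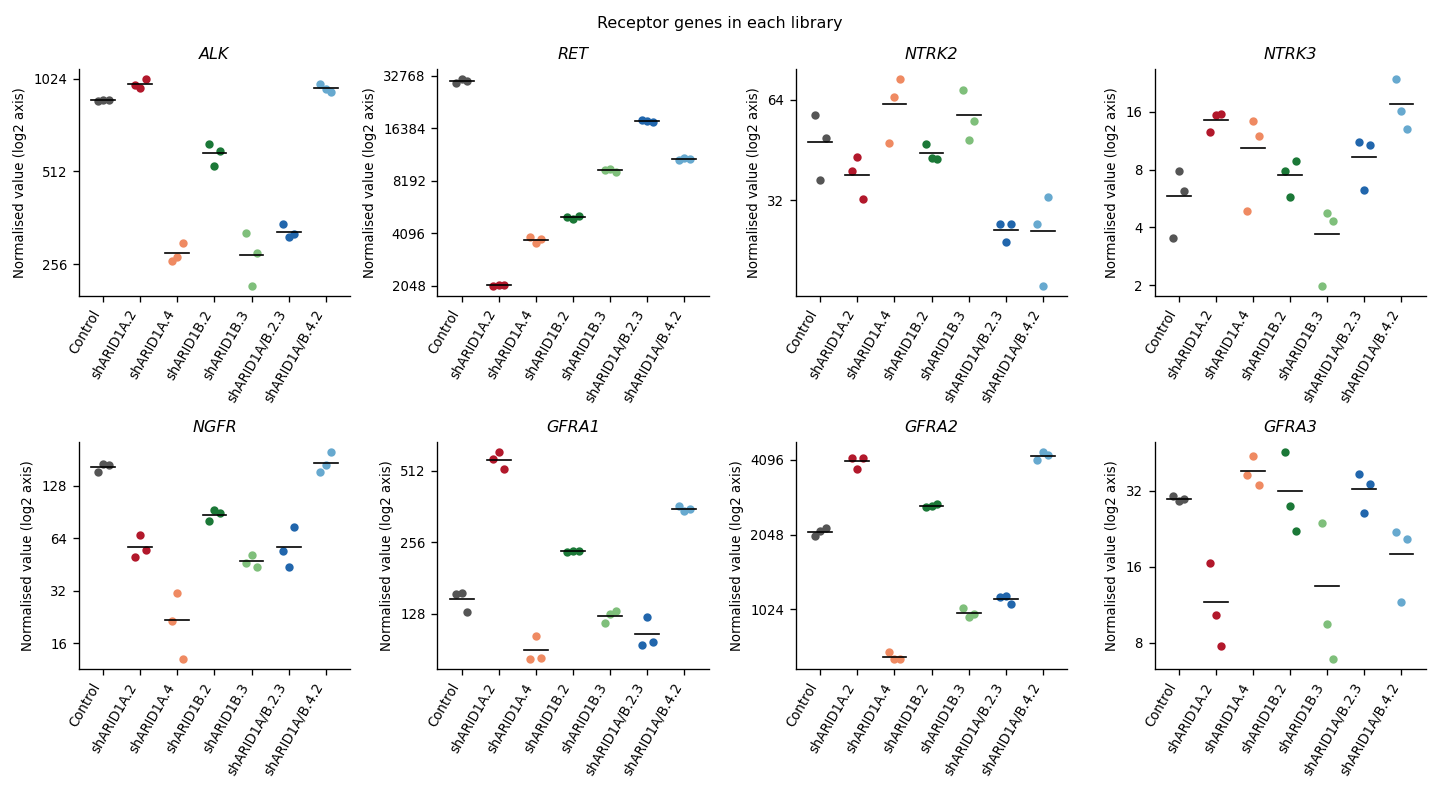
Normalised read count on a log2 axis of each receptor gene in the 21 libraries, by labelled condition, with points for libraries and a line for the condition's mean. RET is below Control in every silenced library, whereas ALK, GFRA1, GFRA2 and NGFR are at or above Control in shARID1A/B.4.2 and below it in shARID1A/B.2.3.

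RET, the signalling receptor of the GDNF family, was the most abundant of the 8 in Control and fell in every silenced condition. The Control libraries held 29923, 31384 and 30687. In the libraries labelled shARID1A, RET had 2049, 2076 and 2071 with shARID1A.2, and 3884, 3601 and 3812 with shARID1A.4. The libraries labelled shARID1B had 5102, 4949 and 5138 with shARID1B.2, and 9427, 9569 and 9181 with shARID1B.3. No library of these 4 conditions came near Control, and none of the 7 conditions overlapped another. The libraries labelled shARID1A/B kept the most RET, with 18268, 18108 and 17884 in shARID1A/B.2.3 and 10759, 11058 and 10921 in shARID1A/B.4.2. The fall was 14.8-fold in shARID1A.2 (log2 fold change of -3.89 ± 0.03 SE, limma adjusted p = 3.79e-32), which left 6.74% of the Control level, and 8.14-fold in shARID1A.4 (-3.03 ± 0.03, limma adjusted p = 2.88e-30). It was 6.06-fold in shARID1B.2 (-2.60 ± 0.03), 3.26-fold in shARID1B.3 (-1.71 ± 0.03), 1.7-fold in shARID1A/B.2.3 (-0.76 ± 0.03) and 2.81-fold in shARID1A/B.4.2 (-1.49 ± 0.03). By the size of the change RET ranked 78 in shARID1A.2, 191 in shARID1A.4 and 119 in shARID1B.2 among the 18584 genes, but 568 in shARID1B.3, 4889 in shARID1A/B.2.3 and 1551 in shARID1A/B.4.2. The level of RET followed the labels, lowest under shARID1A, higher under shARID1B and highest of the silenced conditions under shARID1A/B, which in measured terms are the libraries with both genes low, with ARID1A low and with ARID1B low.

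The differences of RET between labels were tested directly, each label as the mean of its 2 conditions. RET was lower in shARID1A than in shARID1A/B (log2 fold change of -2.33 ± 0.02, limma adjusted p = 1.75e-30), a change that ranked 24 by size among all genes, and lower in shARID1A than in shARID1B, with a log2 fold change of -1.31 ± 0.02 (limma adjusted p = 1.21e-25). It was higher in shARID1A/B than in shARID1B by 1.03 ± 0.02 (limma adjusted p = 4.37e-24). The hairpins of one label also differed. RET was higher in shARID1A.4 than in shARID1A.2 (0.87 ± 0.03) and in shARID1B.3 than in shARID1B.2 (0.89 ± 0.03). It was lower in shARID1A/B.4.2 than in shARID1A/B.2.3 (-0.73 ± 0.03). These gaps were smaller than those between label means and larger than the spread of replicates. Single conditions of different labels could lie closer, with mean log2 values of 13.20 in shARID1B.3 and 13.41 in shARID1A/B.4.2. The standard errors measure the spread of libraries, not that of hairpins or combinations.

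The co-receptors of RET did not fall in every condition. GFRA1, the partner for GDNF, rose in 3 conditions and fell in 2. Its values were 155, 156 and 130.4 in Control, 573, 613 and 523 in shARID1A.2, and 82.5, 103 and 82.8 in shARID1A.4. These 2 conditions, in both of which ARID1A and ARID1B were low, thus lay on opposite sides of Control. GFRA1 had 232, 236 and 234 in shARID1B.2, 117, 127 and 131 in shARID1B.3, 94.2, 124 and 97.3 in shARID1A/B.2.3, and 363, 346 and 354 in shARID1A/B.4.2. The rise was 3.87-fold in shARID1A.2 (1.95 ± 0.10 on the log2 scale, limma adjusted p = 1.34e-14), 2.41-fold in shARID1A/B.4.2 (1.27 ± 0.10, limma adjusted p = 7.88e-11) and 1.59-fold in shARID1B.2 (0.67 ± 0.10). GFRA1 fell in shARID1A.4 (-0.71 ± 0.10) and shARID1A/B.2.3 (-0.49 ± 0.10), and in shARID1B.3, whose libraries overlapped those of Control, the log2 fold change was -0.23 ± 0.10 (limma adjusted p = 0.0644).

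GFRA2, the partner for neurturin, had a higher level, and its means lay above and below the Control mean in the same conditions as those of GFRA1. Control libraries held 2030, 2114 and 2177, shARID1A.2 held 4175, 3765 and 4185, and shARID1A/B.4.2 held 4099, 4392 and 4298. The last 2 conditions lay above Control in every library and overlapped each other. GFRA2 had 2655, 2667 and 2720 in shARID1B.2, 1146, 1156 and 1080 in shARID1A/B.2.3, 1037, 956 and 986 in shARID1B.3, and 688, 648 and 649.7 in shARID1A.4. GFRA2 rose 1.92-fold in shARID1A.2 (0.94 ± 0.04, limma adjusted p = 3.10e-16), 2.02-fold in shARID1A/B.4.2 (1.02 ± 0.04, limma adjusted p = 8.61e-17) and 1.27-fold in shARID1B.2 (0.35 ± 0.04). It fell 3.18-fold in shARID1A.4 (-1.67 ± 0.04, limma adjusted p = 2.90e-21), 2.12-fold in shARID1B.3 (-1.08 ± 0.04) and 1.87-fold in shARID1A/B.2.3 (-0.90 ± 0.04).

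GFRA3, the partner for artemin, was low and behaved otherwise. Its values were 30.5, 29.1 and 29.8 in Control, 16.6, 10.3 and 7.8 in shARID1A.2, and 23.9, 9.5 and 6.91 in shARID1B.3. The gene fell in these 2 conditions, by -1.35 ± 0.35 in shARID1A.2 (limma adjusted p = 0.00126) and -1.27 ± 0.35 in shARID1B.3 (limma adjusted p = 0.00279) on the log2 scale. In shARID1A/B.4.2 it had 21.9, 11.6 and 20.6, all below Control, with a log2 fold change of -0.74 ± 0.35 (limma adjusted p = 0.0615). The libraries of shARID1A.4 had 36.9, 44 and 33.9, those of shARID1B.2 45.5, 27.8 and 22.2, and those of shARID1A/B.2.3 37.5, 26.1 and 34, with log2 fold changes of 0.34 ± 0.35, 0.03 ± 0.35 and 0.11 ± 0.35, none of which passed the test.

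ALK fell in 4 of the 6 silenced conditions. Its values were 868, 872 and 877 in Control, 262, 271 and 299 in shARID1A.4, 323, 218 and 279 in shARID1B.3, and 345, 314 and 321 in shARID1A/B.2.3. In these 3 conditions about a 3-fold loss was seen, 3.14-fold in shARID1A.4 (-1.65 ± 0.09 on the log2 scale, limma adjusted p = 1.68e-14), 3.2-fold in shARID1B.3 (-1.69 ± 0.09, limma adjusted p = 2.40e-14) and 2.67-fold in shARID1A/B.2.3 (-1.42 ± 0.09, limma adjusted p = 4.64e-13). With shARID1B.2 the libraries held 630.2, 534 and 597, a fall of 1.49-fold (-0.57 ± 0.09, limma adjusted p = 4.45e-06). The libraries of shARID1A.2 held 981, 958 and 1022 and those of shARID1A/B.4.2 held 982, 952 and 930.0, all above the highest Control library. The log2 fold changes of 0.18 ± 0.09 (limma adjusted p = 0.0757) and 0.13 ± 0.09 (limma adjusted p = 0.199) did not pass the test, although edgeR called both (adjusted p = 0.0106 and 0.0303). Both were also called with only the conditions compared and with total-read or upper-quartile scaling. DESeq2, TMM scaling and the replicate block called the change in shARID1A.2 but not that in shARID1A/B.4.2. Other pseudocounts and filters called neither.

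NGFR, which encodes p75, fell in 5 of the 6 conditions. Control libraries held 153, 170.1 and 169. The libraries of shARID1A.4 were lowest, with 21.4, 30.9 and 13, and those of shARID1A.2 held 49.9, 67 and 54.6. No library of either condition reached the Control range. NGFR had 45.8, 51.3 and 44 in shARID1B.3, 80.5, 92.6 and 88.9 in shARID1B.2, and 53.7, 43.8 and 74 in shARID1A/B.2.3. In shARID1A/B.4.2 the libraries held 154, 168 and 199 and overlapped those of Control (log2 fold change of 0.07 ± 0.21, limma adjusted p = 0.776). The fall was 7.54-fold in shARID1A.4 (-2.94 ± 0.21, limma adjusted p = 5.92e-12), 3.49-fold in shARID1B.3 (-1.78 ± 0.21, limma adjusted p = 8.85e-08), 2.87-fold in both shARID1A/B.2.3 (-1.54 ± 0.21) and shARID1A.2 (-1.52 ± 0.21), and 1.88-fold in shARID1B.2 (-0.90 ± 0.21). Averaged over the conditions of a label, NGFR was lower in shARID1A than in shARID1A/B (-1.49 ± 0.15, limma adjusted p = 6.30e-09), a change that ranked 176 by size. The mean of shARID1A was also below that of shARID1B (-0.88 ± 0.15, limma adjusted p = 1.48e-05). Libraries labelled shARID1A overlapped those of both other labels. The mean was 57.1 in shARID1A.2, 57.1 in shARID1A/B.2.3 and 47 in shARID1B.3. Within labels, shARID1A.4 differed from shARID1A.2 by -1.42 ± 0.21 and shARID1A/B.4.2 from shARID1A/B.2.3 by 1.61 ± 0.21. These label means thus average unlike conditions.

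NTRK2 was low and fell in both shARID1A/B conditions. It had 57.5, 36.9 and 49.3 in Control, 27.3, 24 and 27.2 in shARID1A/B.2.3, and 27.3, 17.8 and 32.8 in shARID1A/B.4.2. All 6 of the latter libraries were below the lowest Control library, with log2 fold changes of -0.83 ± 0.22 (limma adjusted p = 0.00173) and -0.88 ± 0.22 (limma adjusted p = 9.67e-04). The other libraries held 39.1, 43.3 and 32.3 in shARID1A.2, 47.6, 65.4 and 73.8 in shARID1A.4, 47.3, 42.8 and 42.7 in shARID1B.2, and 68.7, 48.5 and 55.3 in shARID1B.3, each overlapping Control, with log2 fold changes of -0.31, 0.37, -0.09 and 0.27 that did not pass the test. Tested directly, NTRK2 was lower in shARID1A/B than in shARID1B (-0.94 ± 0.15, limma adjusted p = 7.61e-06) and higher in shARID1A than in shARID1A/B (0.89 ± 0.15, limma adjusted p = 2.54e-05). It is the 1 receptor of the 8 that was called in both conditions of shARID1A/B and in no other condition.

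NTRK3 was the lowest of the 8, with values from 1.99 to 23.7. The libraries held 3.52, 7.83 and 6.16 in Control, 12.5, 15.4 and 15.6 in shARID1A.2, and 23.7, 16.2 and 13.1 in shARID1A/B.4.2. NTRK3 rose in these 2 conditions, by 1.23 ± 0.39 (limma adjusted p = 0.00708) and 1.46 ± 0.39 (limma adjusted p = 0.00198) on the log2 scale. It had 4.86, 14.3 and 12 in shARID1A.4, 7.88, 5.79 and 8.89 in shARID1B.2, 1.99, 4.75 and 4.32 in shARID1B.3, and 11.1, 6.25 and 10.7 in shARID1A/B.2.3, each overlapping Control, with log2 fold changes of 0.67, 0.35, -0.55 and 0.62 that did not pass the test. In shARID1A.4 this rested on replicate 1, since without it NTRK3 was called with a log2 fold change of 1.10 and NTRK2 with 0.55, and 7 of the 8 genes were then called in that condition. At these values a few reads set the fold change.

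**Figure D3:**
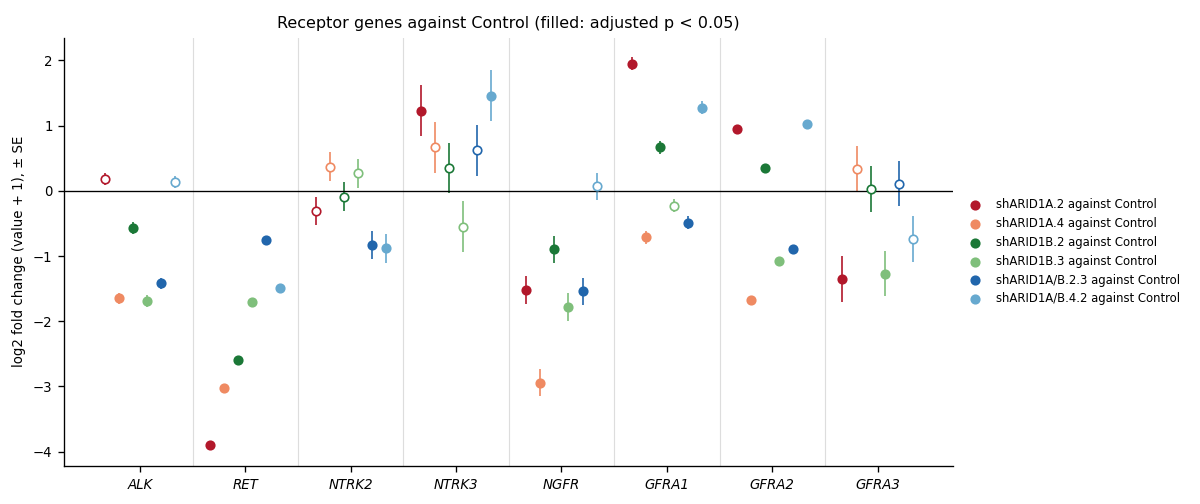
Log2 fold change (value + 1) of each receptor gene against Control in the 6 silenced conditions, with bars for the standard error of the fit and filled points for a limma adjusted p below 0.05. RET is below 0 in all 6, from -3.89 to -0.76, and GFRA1 and GFRA2 have filled points on both sides of 0.

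Per kilobase of exon, the Control level was 4437 ± 106 (SD, n = 3) for RET, 369 ± 13 for GFRA2, 118 ± 0.621 for ALK and 39.5 ± 2.38 for NGFR. GFRA1 at 15.2 ± 1.48 and GFRA3 at 14.6 ± 0.353 did not differ beyond their spread, and NTRK2 at 2.35 ± 0.509 and NTRK3 at 0.218 ± 0.0812 were lowest. With shARID1A.2, the level of RET per kilobase was 299 ± 2.1 while that of GFRA2 was 707 ± 41.9, so that the co-receptor transcript exceeded that of the receptor. The same comparison in shARID1A/B.4.2 was 1579 ± 21.7 for RET against 746 ± 26.1 for GFRA2.

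On GRCh38 with GENCODE 29, ALK lies on chr2:29192774-29921566 (minus strand), RET on chr10:43077027-43130351 (plus), NTRK2 on chr9:84668551-85027070 (plus), NTRK3 on chr15:87859751-88256768 (minus), NGFR on chr17:49495293-49515017 (plus), GFRA1 on chr10:116056925-116273467 (minus), GFRA2 on chr8:21690403-21812357 (minus) and GFRA3 on chr5:138252379-138274671 (minus). Values are for whole genes, exons of all isoforms together. Annotated genes that overlap these loci were at or near 0 in all 21 libraries, the highest being a transcript opposite NGFR with a value of at most 1.54.

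The 2 conditions of a label were compared directly, since 2 hairpins or combinations of the same label would be read as repeats of each other. Between shARID1A.4 and shARID1A.2, 7 of the 8 receptor genes differed (75.8% of all genes), 5 of them by at least 1 on the log2 scale (23.9% of all). Between shARID1B.3 and shARID1B.2 it was 7 (66% of all) and 3 (13.7%), and between shARID1A/B.4.2 and shARID1A/B.2.3 it was 6 (74.9%) and 4 (22.3%). By direction, 3 of the 8 were higher and 4 lower in shARID1A.4 (37.3% and 38.4% of all genes), 1 higher and 6 lower in shARID1B.3 (33% and 33%), and 4 higher and 2 lower in shARID1A/B.4.2 (37.8% and 37.1%). GFRA1 and GFRA2 differed most between the shARID1A conditions, with log2 fold changes of -2.66 ± 0.10 (limma adjusted p = 2.16e-17) and -2.61 ± 0.04 (limma adjusted p = 4.11e-25) for shARID1A.4 against shARID1A.2. ALK differed by -1.83 ± 0.09 and NGFR by -1.42 ± 0.21 in the same direction, while GFRA3 was 1.70 ± 0.35 higher and NTRK2 0.68 ± 0.22 higher in shARID1A.4. The same 4 genes were lower in shARID1B.3 than in shARID1B.2, GFRA2 by -1.43 ± 0.04, ALK by -1.12 ± 0.09, GFRA1 by -0.90 ± 0.10 and NGFR by -0.88 ± 0.21. In shARID1B.3 GFRA3 (-1.30 ± 0.35) and NTRK3 (-0.90 ± 0.39, limma adjusted p = 0.0479) were lower too, the latter not called by edgeR or DESeq2, nor when any 1 of 12 libraries was left out. ALK, NGFR, GFRA1 and GFRA2 were higher in shARID1A/B.4.2 than in shARID1A/B.2.3, GFRA2 by 1.92 ± 0.04, GFRA1 by 1.75 ± 0.10, NGFR by 1.61 ± 0.21 and ALK by 1.55 ± 0.09.

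**Figure D4:**
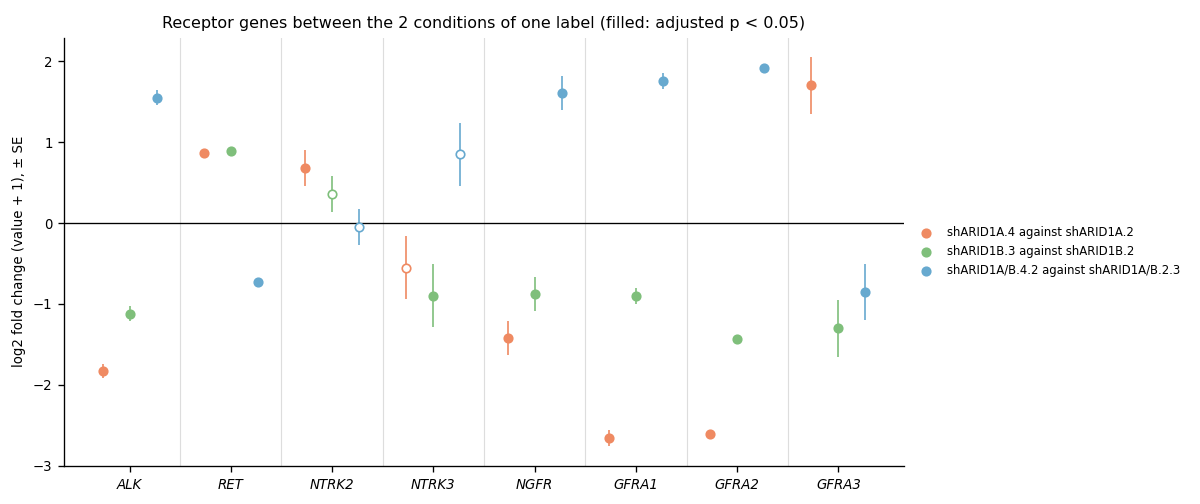
Log2 fold change (value + 1) of each receptor gene between the 2 conditions of one label, with bars for the standard error of the fit and filled points for a limma adjusted p below 0.05. ALK, NGFR, GFRA1 and GFRA2 are lower in shARID1A.4 and shARID1B.3 than in their partners and higher in shARID1A/B.4.2 than in shARID1A/B.2.3, and RET has the opposite sign in all 3 comparisons.

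Between labels, 5 of the 8 genes differed for shARID1A against shARID1B (67.3% of all genes), 5 for shARID1A against shARID1A/B (59.2%) and 7 for shARID1A/B against shARID1B (70.2%). Changes of at least 1 were 2 (RET and NTRK3), 2 (RET and NGFR) and 2 (RET and NTRK3) of the 8, where 6.03%, 3.62% and 8.03% of all genes reached that size. ALK differed little between label means, with log2 fold changes of 0.40 ± 0.06 for shARID1A against shARID1B, -0.09 ± 0.06 for shARID1A against shARID1A/B and 0.49 ± 0.06 for shARID1A/B against shARID1B. GFRA2 was at 0.00 ± 0.03 for shARID1A against shARID1B. For both genes the gap between the 2 hairpins of a label was larger than the gap between label means, and a mean over the label averages a higher and a lower condition.

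Of the 12 ligand genes listed for these receptors, 5 had enough reads to be tested. The ALK ligand genes were at or near 0, ALKAL1 in all 21 libraries and ALKAL2 with values up to 1.94, as was GDNF with values up to 2.05. BDNF, the ligand of TrkB, had 175 in Control and rose in shARID1A.2 (528, 1.59 ± 0.11 on the log2 scale, limma adjusted p = 4.85e-12), shARID1B.2 (436, 1.31 ± 0.11) and shARID1A/B.4.2 (301, 0.77 ± 0.11). It fell in shARID1A.4 (92.9, -0.91 ± 0.11), shARID1A/B.2.3 (95.6, -0.89 ± 0.11) and shARID1B.3 (134, -0.39 ± 0.11), which is the split seen for GFRA2. NRTN, which encodes neurturin, had 19.3 in Control and rose in shARID1A.2 (33.6, 0.79 ± 0.26 on the log2 scale), shARID1B.2 (45, 1.21 ± 0.26) and shARID1A/B.2.3 (48.6, limma adjusted p = 1.11e-04) and fell in shARID1B.3 (9.29, limma adjusted p = 0.00202). Pleiotrophin (PTN), with 20677 in Control, fell in 5 conditions and had -0.03 ± 0.04 in shARID1B.3, from a mean of 6708 in shARID1A.2 to 13532 in shARID1A/B.4.2 where it fell. Midkine (MDK) had 10078 in Control and rose in 3 conditions, most in shARID1B.3 (24681, 1.29 ± 0.03). It fell in shARID1A.2 (7230, -0.48 ± 0.03), shARID1A/B.2.3 (6689, -0.59 ± 0.03) and shARID1A/B.4.2 (6956, -0.54 ± 0.03). PTN and MDK were once proposed as ALK ligands and bind heparan sulphate and several receptors. In shARID1A.2 3 of the 5 tested ligand genes were higher and 2 lower (37.9% and 38.2% of all genes). The counts in the other comparisons with Control ran from 1 to 3 higher and from 1 to 3 lower. Among all genes, 31.6% to 37% were called higher and 32% to 36.6% lower in those comparisons.

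Of 9 other receptors and co-receptors, 6 were tested. LTK, the closest relative of ALK, had 124 in Control and fell in all 6 conditions, most in shARID1A.4 (20.4, -2.56 ± 0.18). SORT1, which encodes sortilin, a partner of p75, had 3089 in Control and fell in 5 conditions, to 975 in shARID1A.4 (-1.66 ± 0.03). In shARID1A/B.4.2 it had -0.09 ± 0.03, which turned to 0.10 with scaling to total reads. SORCS2, another partner of p75, fell in 4 conditions, rose in shARID1A/B.2.3 (0.79 ± 0.15) and had 0.32 ± 0.15 in shARID1B.2. Over the 6, all were lower in shARID1A.2 and shARID1B.3 (38.2% and 32% of all genes were called lower there). In shARID1A.4 5 were lower and 1 higher (36.6% and 37% of all genes), and in shARID1B.2 4 were lower (34%). In shARID1A/B.2.3 3 were lower and 2 higher (34% and 35.2%), and in shARID1A/B.4.2 4 were lower and 1 higher (36.1% and 35.1%). With scaling to total reads 3 were lower and 3 higher in shARID1A/B.4.2. The list's median log2 fold change was lowest in shARID1A.4, at -1.08, where the median of all genes was 0.02.

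The 23 adaptors and signal relays were all tested and moved in both directions, with medians from -0.33 in shARID1A/B.4.2 to 0.11 in shARID1B.3. In shARID1A.2, 15 of 23 were lower and 6 higher (38.2% and 37.9% of all genes), or 12 and 8 with scaling to total reads. In shARID1B.3, 9 were lower and 11 higher (32% and 31.9% of all genes). GAB1, a docking protein downstream of receptor kinases, fell in all 6 conditions, from 2075 in Control to 656 in shARID1A.4 (-1.66 ± 0.03) and 731 in shARID1A/B.2.3 (-1.50 ± 0.03). SHC2, an adaptor found mostly in neurons, had 345 in Control and fell in 5 conditions, to 124 in shARID1A.4 (-1.47 ± 0.08), with 0.11 ± 0.08 in shARID1B.2. The insulin receptor substrate IRS2 rose to 6054 in shARID1A.4 (1.08 ± 0.04) and 5921 in shARID1B.3 (1.05 ± 0.04) from 2854 in Control and fell to 1498 in shARID1A.2 (-0.93 ± 0.04). IRS1 fell most in shARID1A/B.4.2 (-1.27 ± 0.06) and shARID1A.2 (-0.87 ± 0.06) from 665 in Control and had 0.55 ± 0.06 in shARID1A.4. The adaptor gene SH2B2 rose in 4 conditions, most in shARID1A.4 (442 against 193, 1.19 ± 0.08), and DOK5, a substrate of RET, fell most in shARID1A.2 (15.5 against 50.6, -1.68 ± 0.26).

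The 18 immediate-early and feedback genes of ERK signalling were all tested, and their counts differed between the 2 conditions of each label. In shARID1A.2 17 of 18 were lower and none higher (38.2% and 37.9% of all genes). In shARID1B.2 17 were lower and 1 higher (34% and 31.6%), and in shARID1A/B.4.2 all 18 were lower (36.1%). The median log2 fold changes were -1.73, -1.28 and -0.99. In shARID1A.4 9 were lower and 8 higher (36.6% and 37% of all genes). The numbers were 11 and 7 in shARID1B.3 (32% and 31.9%) and 11 and 6 in shARID1A/B.2.3 (34% and 35.2%). The medians were -0.12, -0.38 and -0.26. The median of all genes was between 0.01 and 0.02 in these comparisons. With scaling to total reads, which moved the median of all genes by up to 0.18, the counts lower were 17, 16 and 17 in the first 3 conditions. Compared directly, 15 of the 18 were higher and 2 lower in shARID1A.4 than in shARID1A.2 (37.3% and 38.4% of all genes), with a median of 1.58. Against shARID1B.2, 15 were higher and 2 lower in shARID1B.3 (33% and 33%), with a median of 1.12. Against shARID1A/B.2.3, 2 were higher and 16 lower in shARID1A/B.4.2 (37.8% and 37.1%), with a median of -1.22.

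Single genes of this list spanned a wide range. EGR1, an immediate-early transcription factor, fell from 2795 in Control to 440.4 in shARID1A.2 (-2.66 ± 0.04, limma adjusted p = 4.18e-26) and 312 in shARID1A/B.4.2 (-3.16 ± 0.04, limma adjusted p = 2.59e-27) and rose to 5853 in shARID1A.4 (1.07 ± 0.04) and 7059 in shARID1B.3 (1.34 ± 0.04). VGF, a neurotrophin-inducible secreted peptide precursor, fell from 4536 to 1097 in shARID1A.2 (-2.05 ± 0.07) and rose to 13204 in shARID1A.4 (1.54 ± 0.07) and 28501 in shARID1B.3 (2.65 ± 0.07). ARC showed the same split, at -1.77 ± 0.07 in shARID1A.2 and 1.11 ± 0.07 in shARID1A.4. By contrast DUSP6, the cytoplasmic ERK phosphatase, fell in all 6 conditions from 4311, to 1326 in both shARID1A conditions (-1.70 ± 0.04 in each) and to 987 in shARID1A/B.2.3 (-2.13 ± 0.04), as did IER3, from 1770 to 230.2 in shARID1A.2 (-2.94 ± 0.08) and 885 in shARID1B.3 (limma adjusted p = 1.20e-10). DUSP5, a nuclear ERK phosphatase, fell from 449 to 105 in shARID1A.2 (-2.11 ± 0.11) and rose to 1053 in shARID1A/B.2.3 (1.23 ± 0.11). These are transcript levels, and ERK activity was not measured.

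**Figure D5:**
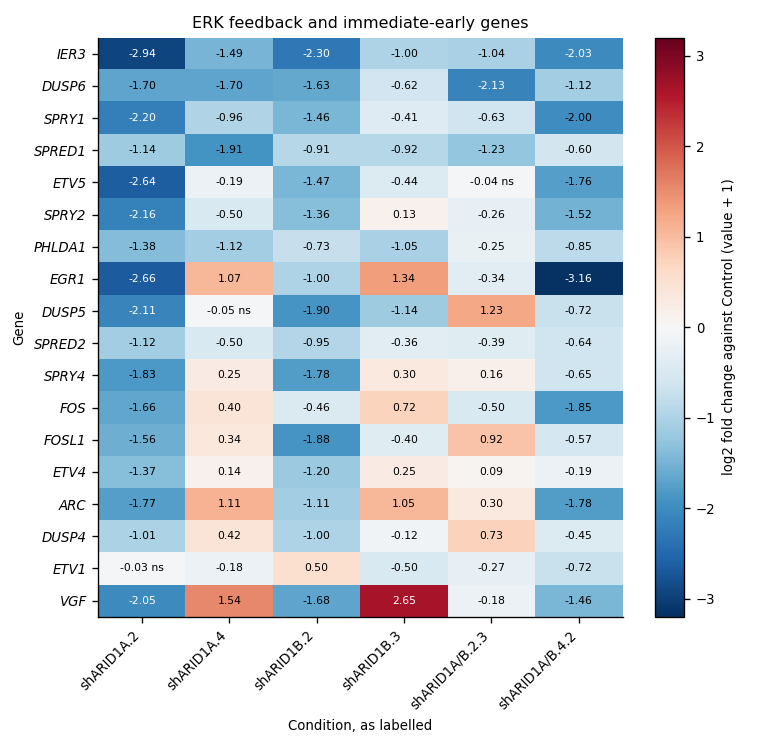
Log2 fold change (value + 1) against Control of 18 immediate-early and feedback genes of ERK signalling in the 6 silenced conditions, with colour for size and direction and ns for a limma adjusted p of 0.05 or more. The columns of shARID1A.2 and shARID1A/B.4.2 hold no rise that was called, and EGR1, VGF and ARC are above 0 in shARID1A.4 and shARID1B.3.

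The 9 transcription factors of the sympathetic lineage were all tested. ISL1 and HAND2 fell in all 6 conditions, most in shARID1A.2 (-1.22 ± 0.03 and -1.70 ± 0.03) and shARID1A/B.4.2 (-1.20 ± 0.03 and -1.49 ± 0.03). MYCN, which is amplified in this line, had 122676 in Control and rose in shARID1A.4 (418088, 1.77 ± 0.03), shARID1A/B.2.3 (218568, 0.83 ± 0.03) and shARID1B.3 (157306, 0.36 ± 0.03). It fell in shARID1B.2 (79339, -0.63 ± 0.03), shARID1A/B.4.2 (85143, -0.53 ± 0.03) and shARID1A.2 (93294, -0.40 ± 0.03). Of the 9, 7 were lower and 2 higher in shARID1A.2 (38.2% and 37.9% of all genes), 7 and 2 in shARID1B.2 (34% and 31.6%), and 6 and 2 in shARID1A/B.4.2 (36.1% and 35.1%), or 5 and 3 there with scaling to total reads. In shARID1A.4 5 were lower and 3 higher (36.6% and 37%), in shARID1A/B.2.3 5 and 4 (34% and 35.2%), and in shARID1B.3 4 and 4 (32% and 31.9%). The list's median ran from -0.71 in shARID1A.2 to -0.07 in shARID1B.3.

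The genes whose levels ran most like each receptor over the 21 libraries are given as a description, since the libraries share 7 conditions. RET ran with PRRT4 (Pearson r = 0.987), TYRO3 (0.983) and ZNF536 (0.980). ALK ran with RASA2 (0.981), RAB8B (0.972) and MMD (0.968), GFRA1 with CREG1, EYA4 and RCOR3 (0.979 each), GFRA2 with TMEM106B (0.991), P2RX3 (0.990) and SERP2 (0.989), and NGFR with FGFR2 (0.953), MVK (0.942) and FAM181B (0.939). Likeness was weaker for the low genes, NTRK2 with ZNF160 (0.846), TTC30A and RCBTB1 (0.845 each), NTRK3 with TMEM38A (0.874), NUDT17 (0.866) and NADSYN1 (0.854), and GFRA3 with AC068473.3 (0.837), ADCY3 (0.826) and MAPK4 (0.812).

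The label of the cell line was checked against marker genes. All 9 adrenergic neuroblastoma markers were detected in all 21 libraries, with a summed level of 82583 to 84450 in Control and 59094 to 99447 over the silenced libraries. The summed level of 9 mesenchymal markers was 22771 to 23119 in Control, lowest in shARID1A/B.4.2 (7871 to 8699) and shARID1A.2 (8520 to 9480), and otherwise 11107 to 11304 in shARID1A.4, 15050 to 16424 in shARID1A/B.2.3, 16105 to 17932 in shARID1B.3 and 20703 to 22565 in shARID1B.2. PRRX1 was at 0 in 17 libraries. COL1A1 alone had a mean of 12929 in Control, 1364 in shARID1A.2 and 827 in shARID1A/B.4.2. Its fall made up most of the drop of the mesenchymal sum in these 2 conditions. The median log2 fold change of the 8 tested mesenchymal markers ordered the conditions otherwise. It was lowest in shARID1A.4 (-1.19), followed by shARID1A.2 (-1.02), whereas shARID1A/B.4.2 had -0.46. The mesenchymal sum moved with the conditions, and its part in the receptor results was not tested. Of 7 Schwann cell markers, SOX10 was at 0 in all 21 libraries, FOXD3 in 20 and CDH19 in 17, and the sum was 137 to 162 in Control and at most 609, in shARID1A.2. Of 6 immune markers, CD3E was at 0 in 11 libraries and ITGAM in 16, and the sum was 449.8 to 484 in Control and 101 to 349.6 elsewhere. PTPRC alone had values of 57.3 to 426. In bulk RNA, fewer cells of a type and less RNA per cell cannot be told apart.

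Depth lay between 27954334 and 41077638 recovered reads a library (median of 34973565). Every library was closest to its own condition (21 of 21). In each of the 21 pairs of replicates the reads varied beyond sampling noise, and every library was counted once.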

How the data were processed

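RNA-Seq was made from 21 libraries with a stranded polyadenylated RNA kit and sequenced on an Illumina instrument. Per the submitters' processing notes, which give no roles, the tools were STAR 2.5.3a, RSEM 1.3.0 and DESeq2 1.26.0 on GRCh38. Whether the counting used strand is not given in the sources used here. The deposited values are a signal, the reads of a gene scaled by the size factor of its library (0.841 to 1.295). Whole reads were recovered from the steps of the values for 100% of them (tolerance of 0.1 read, largest deviation of 0.012). Another 3 deposited tables hold the authors' fold changes and p-values against the control and were not used. Every per-library column was assigned by its name. GENCODE 29 held 58496 of the identifiers without their version and 40401 with it.

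The test was limma 3.58.1 with a trend on log2(value + 1) in 1 fit of 7 conditions and 21 libraries, in R 4.3.3, for the 18584 genes that passed filterByExpr of edgeR on recovered reads, which needs enough reads in as many libraries as a condition has, so a gene can pass through the conditions where it is high. Fold changes are on that scale, which understates changes of low genes. Benjamini-Hochberg adjustment ran over those genes, and a call is an adjusted p below 0.05. Each silenced condition was compared with Control, the 2 conditions of a label with each other, and labels with each other as means of their conditions. Levels per kilobase use the merged exon length of GENCODE 29.

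The genes named are the 8 receptors, ARID1A and ARID1B, up to 6 genes per list (called with a log2 fold change of at least 1 in the most comparisons with Control, ties by mean size) and the 3 genes most correlated with each receptor. SOX10, FOXD3, CDH19, PRRX1, CD3E and ITGAM and the untested ligands are named or used as markers outside that rule. The receptors and all lists (ligands, other receptors, adaptors, ERK targets, lineage factors, cell markers) were chosen with earlier results of these data known. Some genes of these lists that the rule selects are not reported here. The tests were checked on simulated reads.

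Alternatives were edgeR 4.0.16, DESeq2 1.42.0, TMM, total-read and upper-quartile scaling, pseudocounts of 0.5 and 5, no filter (35892 genes), a mean of at least 10 reads (17008 genes), only the conditions compared, the replicate number as a block, and each library left out in turn. Promoter stretches came from the RefSeq promoter table, in which 6 of the 8 receptors were matched, and NGFR and GFRA2 were not.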

Additional observations from a re-analysis of the deposited data

Results flagged for a closer look

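For GFRA1 and GFRA2 the 2 conditions of one label lay on opposite sides of Control, each change called by limma, and the difference itself was tested in the same fit. In shARID1A.4 against shARID1A.2, GFRA1 differed by -2.66 on the log2 scale, with -0.71 and 1.95 against Control (limma adjusted p = 2.16e-17). GFRA2 differed by -2.61 there, with -1.67 and 0.94 (limma adjusted p = 4.11e-25). In shARID1B.3 against shARID1B.2, GFRA2 differed by -1.43, with -1.08 and 0.35 (limma adjusted p = 1.14e-19). In shARID1A/B.4.2 against shARID1A/B.2.3, GFRA1 differed by 1.75, with 1.27 and -0.49 (limma adjusted p = 1.14e-13), and GFRA2 by 1.92, with 1.02 and -0.90 (limma adjusted p = 1.86e-22). Each of these differences was seen in 3 of 3 libraries against 3 of 3.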

How the results depend on the processing

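The number of receptor genes called stayed within 1.5 times its main value in all 12 comparisons and under every alternative, and no call changed sign. Leaving out 1 library gave counts of 6 to 7 in shARID1A.2, 5 to 7 in shARID1A.4, 5 in shARID1B.2, 5 to 6 in shARID1B.3, 6 in shARID1A/B.2.3 and 5 to 6 in shARID1A/B.4.2. Of the results for single genes, 1155 kept their call under the other alternatives, 20 passed the threshold anew and 13 no longer passed it. With 1 library left out the numbers were 2227, 15 and 26. Results that were not called count as kept even where their sign changed, as for GFRA3 in shARID1B.2 (-0.25 to 0.25). The changed calls were all small or low values: ALK in shARID1A.2 and shARID1A/B.4.2, GFRA1 in shARID1B.3 and between shARID1A/B and shARID1B, GFRA3, NTRK2, NTRK3, and ARID1A in shARID1A/B.4.2, which with total-read scaling was at -0.03 and not called. The call of NTRK3 in shARID1B.3 against shARID1B.2 was lost without any 1 of 12 libraries (-0.90 to -0.61), that of GFRA1 in shARID1A/B against shARID1B without any 1 of 11 (0.11 to 0.18), and that of GFRA3 in shARID1A/B.4.2 against shARID1A/B.2.3 without shARID1A/B.2.3 replicate 1 or 3 or shARID1A/B.4.2 replicate 2 (-0.81 to -0.58). The cause was not tested. Scaling to total reads moved the median of all genes by 0.17 in shARID1A.2, 0.13 in shARID1B.2, 0.18 in shARID1A/B.4.2, -0.15 in shARID1A.4 against shARID1A.2, 0.15 in shARID1A/B.4.2 against shARID1A/B.2.3 and -0.11 in shARID1B.3 against shARID1B.2. Of all called genes, 61.2% were then higher in shARID1A.2 (49.8% with the deposited size factors), 63.0% in shARID1B.2 (48.1%) and 64.8% in shARID1A/B.4.2 (49.3%). A pseudocount of 5 lowered the number of all genes changed by at least 1 from 673 to 385 for shARID1A against shARID1A/B and from 1121 to 660 for shARID1A against shARID1B. The replicate numbers did not pair the libraries, since 2 of 63 pairs of libraries with the same number had a correlation of deviations over 0.1 (range of -0.19 to 0.14) and 6 of 21 libraries correlated best with their own number. With the replicate block the call of ALK in shARID1A.2 (0.18), GFRA1 in shARID1B.3 (-0.23) and GFRA3 in shARID1A/B.4.2 (-0.74) passed the threshold and that of NTRK3 in shARID1B.3 against shARID1B.2 (-0.90) no longer did. At values under about 30 reads, as for NTRK3 and GFRA3, depth limits the precision.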
